A study of Mus musculus with 77 samples.

Results

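The genes of bile acid synthesis, conjugation, transport and farnesoid X receptor (FXR) control were followed in mouse liver: 34 genes, chosen by name for their roles, of 55487 in the count table. They are the enzymes that turn cholesterol into bile acids (Cyp7a1, Cyp8b1, Cyp27a1, Cyp7b1, Cyp2c70, Hsd3b7, Akr1d1, Amacr, Acox2 and Scp2), the conjugating pair Slc27a5 and Baat, 5 uptake carriers, 7 transporters of the canalicular membrane that faces bile, 4 exporter genes of the sinusoidal membrane that faces blood, and 6 genes that sense bile acids or set their synthesis. The liver RNA came from 77 male C57BL/6JRj mice, 1 library a mouse, in 10 groups. Of the 34 genes, 32 passed the filter on low counts and were tested. Slc51a and Gpbar1 did not pass it.

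DIO-MASH mice ate the Gubra Amylin NASH diet, rich in fat, fructose and cholesterol, from 5 to 6 weeks of age for 34 weeks before treatment. They were enrolled on the steatosis and fibrosis scores of a liver biopsy taken 4 weeks before the first dose, so all of them had undergone that surgery and been chosen for disease. The vehicle groups (Vehicle_8_w, n = 9; Vehicle_16_w, n = 8; Vehicle_24_w, n = 7) stayed on the diet, as did those given semaglutide, a GLP-1 receptor agonist, at 123 µg per kg under the skin once a day (Semaglutide_8_w, n = 7; Semaglutide_16_w, n = 8; Semaglutide_24_w, n = 8). By their labels, the chow reversal groups went back to chow (n = 7 in Chow_reversal_8_w, n = 8 in Chow_reversal_16_w and n = 8 in Chow_reversal_24_w). The labels do not say whether these mice received vehicle. Chow_Vehicle_24_w (n = 7) held lean mice kept on chow throughout and given vehicle for 24 weeks. The comparisons asked what the diet, the drug and the return to chow did to these genes, and whether drug and return to chow differed.

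Bile acids are made from cholesterol in hepatocytes. The classic route starts with Cyp7a1, and Cyp8b1 decides how much of its product becomes cholic acid, while the alternative route runs through Cyp27a1 and Cyp7b1. In mice Cyp2c70 makes the muricholic acids that rodents have and people lack. Conjugated bile acids leave the hepatocyte through the bile salt export pump Abcb11 and come back from portal blood mainly through Slc10a1 (NTCP). FXR (Nr1h4) senses them, induces the repressor SHP (Nr0b2) and the export pump, and in the ileum induces FGF15, which acts on hepatocytes through the receptor Fgfr4 with its partner beta-klotho (Klb) to hold synthesis down.

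The promoter letters of 4 places are shown because the results turn on the genes beside them: Cyp8b1, Nr0b2 and Abcb11 are classic subjects of FXR, SHP and LRH-1 (Nr5a2) control, and Abcg5 and Abcg8 share a short stretch between their starts. RefSeq windows (GRCm38.p6) were found for 27 of the 34 genes. In each 250-base window before the start, on both strands, the LRH-1 motif CAAGGNCA and the inverted repeat of FXR with its partner RXR (AGGTCA, any base, then TGACCT, with up to 2 mismatches) were searched, and matches are in capitals.
Cyp8b1, chr9:121916306-121916555, - strand: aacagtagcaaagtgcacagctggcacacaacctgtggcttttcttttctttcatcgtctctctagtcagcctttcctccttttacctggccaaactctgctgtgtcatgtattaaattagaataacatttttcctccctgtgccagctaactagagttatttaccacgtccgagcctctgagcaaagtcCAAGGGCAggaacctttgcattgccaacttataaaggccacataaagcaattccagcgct
Nr0b2, chr4:133553126-133553375, + strand: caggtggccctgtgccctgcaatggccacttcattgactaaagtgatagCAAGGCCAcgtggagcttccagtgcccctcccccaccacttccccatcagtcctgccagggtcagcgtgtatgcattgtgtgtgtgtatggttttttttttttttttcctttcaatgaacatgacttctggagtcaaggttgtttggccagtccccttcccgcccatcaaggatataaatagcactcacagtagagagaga
Abcb11, chr2:69342617-69342866, - strand: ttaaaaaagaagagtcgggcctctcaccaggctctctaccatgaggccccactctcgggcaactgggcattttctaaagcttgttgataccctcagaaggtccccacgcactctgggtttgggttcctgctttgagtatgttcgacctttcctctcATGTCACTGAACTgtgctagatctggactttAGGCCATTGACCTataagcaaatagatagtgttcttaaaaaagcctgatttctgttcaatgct
Abcg5-Abcg8, chr17:84683012-84683120, + strand: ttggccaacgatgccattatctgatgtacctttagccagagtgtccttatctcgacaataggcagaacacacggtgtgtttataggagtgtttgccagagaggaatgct
Cyp8b1 held CAAGGGCA from 60 to 53 bases before its start, and Nr0b2 held CAAGGCCA from 201 to 194 bases before its start. Of 32851 windows of all genes, 5.53% held an LRH-1 match. Abcb11 held an inverted repeat with 1 mismatch from 63 to 51 bases before its start and another with 2 mismatches from 94 to 82 bases before it, and 0.959% of all windows held such a match. The RefSeq starts of Abcg5 and Abcg8 lie 110 bases apart and run away from each other, although GENCODE has Abcg8 begin further upstream, inside Abcg5, and none of the searched motifs was found in the 109 bases between them. These are matches of letters only.

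Total counts ran from 8883150 to 37631072 per library with a median of 16406937, and levels are given as CPM, each count divided by the TMM-scaled total of its library. Hepatocyte markers were present in every group, but their level moved with the groups. The sum of 10 such markers was 119510 to 152760 CPM in lean mice and 51073 to 66530 CPM with vehicle at 24 weeks. It was 71375 to 126760 CPM with semaglutide at 24 weeks and 84567 to 119310 CPM after 24 weeks of reversal. All 10 markers were lower in vehicle than in chow mice at 24 weeks, by a median log2 fold change of -1.17, and 4, 6 and 8 of the 10 were higher with semaglutide and 9, 9 and 10 with reversal against vehicle at 8, 16 and 24 weeks. The summed Kupffer cell and macrophage markers went the other way, from 128 to 428 CPM in lean mice to 845 to 1372 CPM with vehicle at 24 weeks, as did cholangiocyte markers (42.2 to 58.1 against 88.8 to 387 CPM) and stellate cell markers (139 to 200 against 435 to 724 CPM). The enterocyte markers Fgf15 and Fabp6 were at 0 in every library, while the summed level of 6 enterocyte genes, which include Apoa4, a gene that liver also makes, was 166 to 320 CPM in lean mice and 1662 to 5286 CPM with vehicle at 24 weeks. In whole-liver RNA, fewer cells of a type and less RNA per cell cannot be told apart, and the part of these shifts in the results below was not tested.

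A few libraries stood apart. Chow_Vehicle_24_w replicate 5 held 56.6 CPM of Cyp8b1 against 245 to 510 CPM in the other lean mice, 1697 CPM of Cyp2c70 against 281 to 601 CPM, and 142 CPM of the acute phase gene Lcn2 against 1.28 to 4.77 CPM. Chow_reversal_24_w replicate 7 held 95.7 CPM of Slc10a1 against 398 to 731 CPM in its group, 1.41 CPM of Slco1a1 against 29.1 to 197 CPM, and 914 CPM of Lcn2 against 11.01 to 458 CPM, the 458 CPM being replicate 8. Vehicle_24_w replicate 1 held 108 CPM of Abcc4 against 9.47 to 49.97 CPM. Saa1, another acute phase gene, stood at 1766 CPM in Semaglutide_16_w replicate 3 against 132 to 412 CPM in its group, and at 1670.1 and 2838 CPM in Semaglutide_24_w replicates 2 and 8 against 107 to 261 CPM. Members were fitted again without each of these libraries in turn, other than reversal replicate 8. Of the 15 members higher and 4 lower with semaglutide at 24 weeks, 15 and 2 passed without replicate 2 and 14 and 2 without replicate 8. The share of all genes passing either way was 24.3% as reported, 20.3% without replicate 2 and 24.1% without replicate 8. At 16 weeks 7 were higher and 3 lower without replicate 3, where 12.7% of all genes passed, against 12.2% as reported. Lcn2 and Saa1 were picked after the values were seen.

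Per kilobase of exon, Scp2, a sterol carrier that also takes part in side chain shortening, had the highest mean level over all libraries at 994 CPM per kb, followed by Slc27a5 at 381, Cyp27a1 at 236, Cyp2c70 at 178 and Slc10a1 at 177 CPM per kb. Cyp7a1, for all its place at the head of the pathway, stood at 20.2 CPM per kb, rank 23 of 34. The lowest were Abcb1a at 1.66, Abcc4 at 1.36, Slc51b at 1.07, Gpbar1 at 0.0339 and Slc51a at 0.0172 CPM per kb. Gpbar1, the membrane bile acid receptor TGR5, had at most 4 counts in any library and was at 0 in 49 of 77. Gpbar1 in lean mice ran from 0 through a median of 0 to 0 CPM, and with vehicle from 0 through 0.0591 to 0.172 after 8 weeks, 0 through 0.0201 to 0.0811 after 16 and 0 through 0.0942 to 0.252 after 24. With semaglutide, Gpbar1 ran from 0 through 0.061 to 0.173, 0 through 0 to 0.136 and 0 through 0 to 0.122 CPM at the 3 times. After reversal, Gpbar1 ran from 0 through 0 to 0.0639, 0 through 0 to 0.206 and 0 through 0 to 0 CPM. Slc51a, one chain of the organic solute exporter OST, had at most 9 counts and was at 0 in 40 libraries.

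The diet lowered most of these genes. In vehicle against chow mice at 24 weeks, 22 of the 32 tested genes were lower and 5 were higher at an adjusted p under 0.05 (edgeR's quasi-likelihood test, Benjamini-Hochberg adjustment over 14904 genes), where 22% of all genes tested were lower and 25.8% higher (47.8% either way). Their median log2 fold change was -0.74 against -0.02 over all genes. The 2 groups did not overlap for 20 of the 32, where 22.3% of all genes did not. The 5 that rose were exporters: Abcb1a, Abcg5, Abcg8, Abcc4 and Slc51b. The 5 that did not pass were Cyp7a1, Abcc2, Abcb4, Atp8b1 and Abcc3. Scaled to library totals alone, which moved the median of all genes to 0.40, the counts were 15 lower and 6 higher, where 58.1% of all genes passed either way. The calls of Akr1d1, Acox2, Scp2, Slco1b2, Slco2b1, Nr1h4 and Nr5a2 were lost there, Scp2 turned from -0.31 to 0.12, and Abcb4 passed.

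Semaglutide moved fewer of these genes, mostly upward. Against vehicle, 6 genes were higher and 0 lower at 8 weeks (2.24% and 3.51% of all genes, 5.75% either way), 6 higher and 3 lower at 16 weeks (6.44% and 5.8%, 12.2% either way), and 15 higher and 4 lower at 24 weeks (10.8% and 13.6%, 24.3% either way). The median log2 fold changes of the 32 were 0.26, 0.26 and 0.36. With library totals alone the counts were 2 higher and 1 lower, 3 and 3, and 8 and 5, where 8.11%, 18.3% and 32.5% of all genes passed either way, so that at 8 and 16 weeks the members' share was near that of all genes, and the median of all genes moved to -0.13, -0.18 and -0.24. The groups did not overlap for 1, 1 and 5 members at 8, 16 and 24 weeks (1.85%, 0.899% and 4.12% of all genes). At 16 weeks 3 of the 9 calls were kept without 3 libraries numbered in a second series, all of them semaglutide mice. There 6 members passed, and 4.96% of all genes. The 6 at 8 weeks became 3 without Vehicle_8_w replicate 7, a library whose number stood at another group's place in the order of library numbers, and 17 when only the groups compared entered the fit, where the share of all genes went from 5.75% to 3.68% and 15.3%.

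Chow reversal changed more of them. Against vehicle, 14 were higher and 5 lower at 8 weeks (14.2% and 17.9% of all genes, 32.1% either way), 18 higher and 4 lower at 16 weeks (12.1% and 16.2%, 28.2% either way), and 18 higher and 4 lower at 24 weeks (17% and 19.1%, 36.1% either way). Median log2 fold changes were 0.22, 0.42 and 0.47, and those of all genes lay between -0.03 and 0.04 in the 6 treatment comparisons. Under library totals alone the counts were 8 and 8, 11 and 5, and 11 and 6, where 44.3%, 38% and 41.2% of all genes passed either way, with the median of all genes at -0.31, -0.25 and -0.26. Compared directly, semaglutide and chow reversal differed in 3 higher and 3 lower genes at 8 weeks (3.52% and 2.64% of all genes, 6.16% either way), 2 and 6 at 16 weeks (6.24% and 3.56%, 9.8% either way) and 2 and 6 at 24 weeks (7.77% and 8.72%, 16.5% either way, or 2 and 3 of the members with library totals alone, against 14.3% of all genes). Reversal and vehicle mice did not overlap for 15, 9 and 4 members (11.1%, 7.75% and 6.91% of all genes), and semaglutide and reversal mice for 6, 6 and 2 (4.35%, 1.17% and 0.678%). The drug and reversal comparisons share the vehicle mice of each time.

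**Figure D1:**
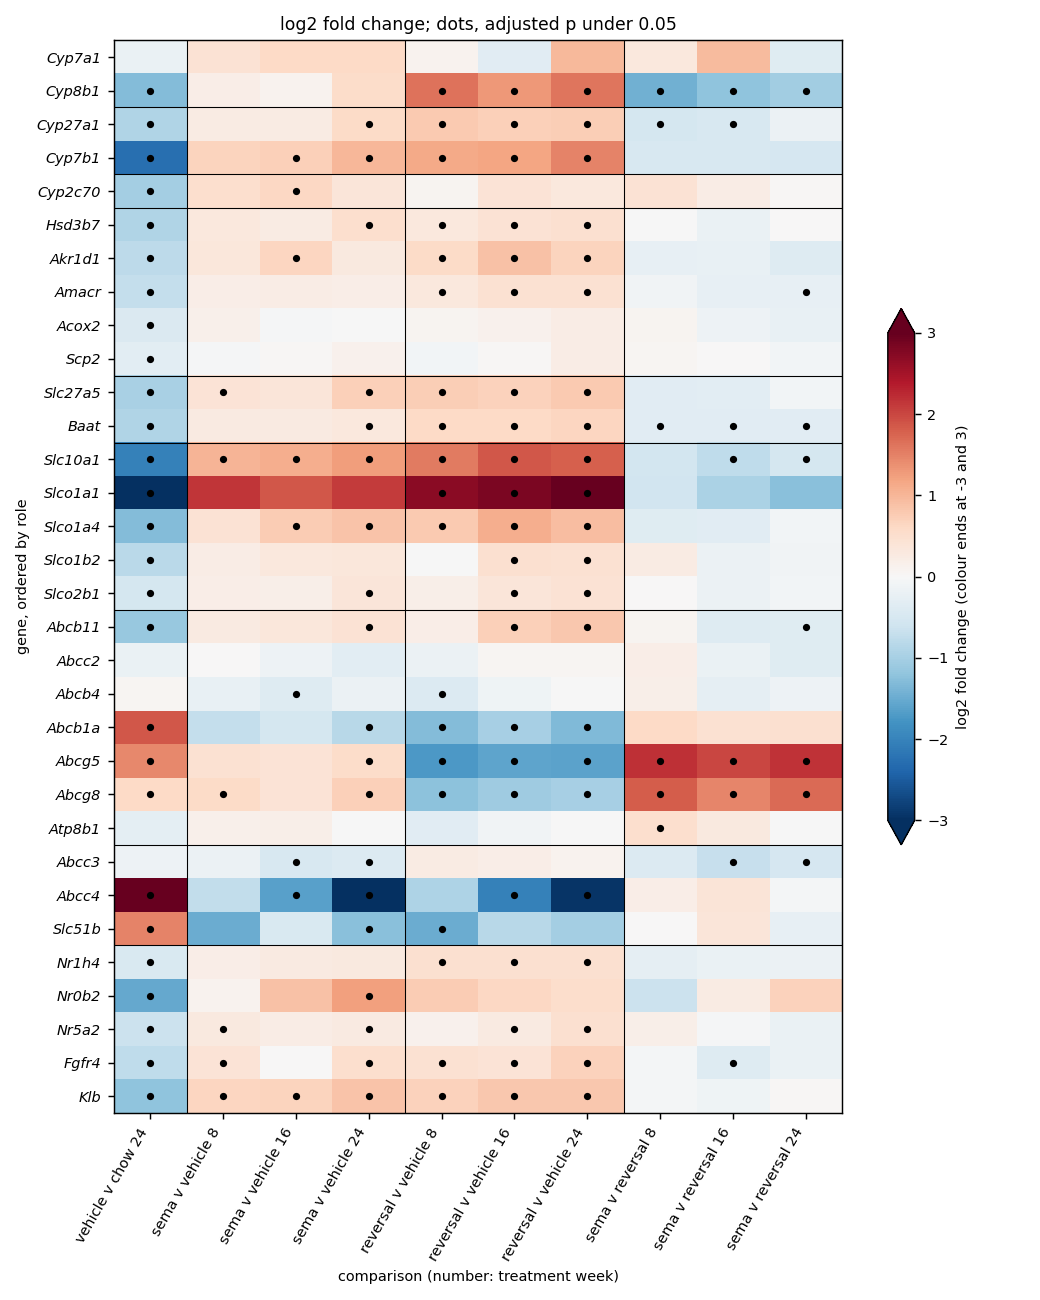
Log2 fold changes of the 32 tested genes (rows, grouped by role with lines between roles) in 10 comparisons (columns, with the treatment week), coloured from -3 to 3, with a dot where the adjusted p was under 0.05. The diet column is mostly blue with 22 genes lower, the chow reversal columns are mostly red, and Abcg5 and Abcg8 are red for semaglutide against reversal at every time.

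Against lean mice at 24 weeks, semaglutide-treated mice still had 13 genes lower and 3 higher (13.5% and 17.9% of all genes, 31.4% either way, and 6 and 3 of the members with library totals alone, against 35.7% of all genes, a share below that of all genes), while chow reversal mice had 3 lower and 0 higher (0.913% and 5.72%, 6.63% either way). The 3 were Cyp7b1 (log2 fold change ± SE, -0.76 ± 0.24), Cyp2c70 (-0.70 ± 0.23) and Hsd3b7 (-0.42 ± 0.12). These 3 depended on single libraries: without Chow_reversal_24_w replicate 7, Cyp7b1 stood at -0.61 (adjusted p = 0.15) and Hsd3b7 at -0.35 (0.11), and without Chow_Vehicle_24_w replicate 5, Cyp2c70 stood at -0.17 (0.73). At an unadjusted p under 0.05, 10 of the 32 differed between reversal and lean mice, as did 18.6% of all genes.

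Of the 2 genes of the classic route, Cyp8b1 passed with the diet and with reversal and Cyp7a1 did not. The difference between the 2 genes was not tested. Cyp7a1 (ENSMUSG00000028240, GRCm38 chr4:6265612-6275633, - strand) is rate limiting for bile acid synthesis. Cyp7a1 in lean mice ran from 18.4 through a median of 75.03 to 216 CPM, and with vehicle from 22.7 through 50.1 to 134 after 8 weeks, 9.86 through 78.5 to 107 after 16 and 17.2 through 80.7 to 106 after 24. With semaglutide, Cyp7a1 ran from 24.4 through 110.2 to 114, 21.5 through 90.4 to 215 and 31.01 through 80.98 to 239 CPM at the 3 times. After reversal, Cyp7a1 ran from 38.5 through 61.9 to 102, 32.01 through 51.6 to 111 and 31.6 through 111 to 306 CPM. Its levels varied widely within every group and the groups overlapped throughout. Cyp7a1 passed the test in none of the 15 comparisons: the log2 fold change was -0.20 ± 0.49 (SE, 95% interval -1.18 to 0.77) for the diet, 0.61 ± 0.48 (-0.35 to 1.56) for semaglutide at 24 weeks and 0.97 ± 0.48 (0.01 to 1.92) for reversal at 24 weeks.

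Cyp8b1 (ENSMUSG00000050445, GRCm38 chr9:121914356-121916305, - strand), the sterol 12-alpha-hydroxylase that makes cholic acid possible, was lower in vehicle than in lean mice at 24 weeks, rose with the return to chow and did not pass the test under semaglutide. Cyp8b1 in lean mice ran from 56.6 through a median of 348 to 510.2 CPM, and with vehicle from 65.6 through 157 to 226 after 8 weeks, 91.3 through 182 to 273 after 16 and 116 through 141 to 166 after 24. With semaglutide, Cyp8b1 ran from 56.8 through 197 to 267, 107 through 195 to 329 and 91.1 through 207 to 311 CPM at the 3 times. After reversal, Cyp8b1 ran from 343 through 475 to 758, 361 through 397 to 626 and 50.3 through 502 to 657 CPM. At 8 and 16 weeks every reversal mouse lay above every vehicle and every semaglutide mouse, while at 24 weeks 2 of the 8 reversal mice lay below every vehicle mouse. Cyp8b1 fell with the diet by 1.29 ± 0.34 (log2 fold change ± SE, adjusted p = 0.00092) and rose with reversal by 1.63 ± 0.31, 1.29 ± 0.31 and 1.602 ± 0.33 at 8, 16 and 24 weeks, fitted ratios of 3.09, 2.45 and 3.04. With semaglutide the values were 0.19 ± 0.31, 0.10 ± 0.31 and 0.55 ± 0.32 (adjusted p = 0.8, 0.88 and 0.21), with 95% intervals of -0.43 to 0.81, -0.52 to 0.71 and -0.09 to 1.195. The direct difference of Cyp8b1, semaglutide minus reversal, was -1.44 ± 0.34, -1.197 ± 0.31 and -1.05 ± 0.31 (adjusted p = 0.0036, 0.0071 and 0.015). The 8-week difference held in all 7 alternatives, the 16-week one was lost without the 3 second-series libraries (-1.01, adjusted p = 0.059), and the 24-week one was lost when only the groups compared entered the fit (-1.04, adjusted p = 0.12).

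Both enzymes of the alternative route fell with the diet and rose with reversal. Cyp27a1 (ENSMUSG00000026170, GRCm38 chr1:74713574-74737892, + strand) is the mitochondrial sterol 27-hydroxylase. Cyp27a1 in lean mice ran from 467 through a median of 673 to 792 CPM, and with vehicle from 298 through 355 to 488 after 8 weeks, 259 through 397 to 580.1 after 16 and 289 through 366 to 411 after 24. With semaglutide, Cyp27a1 ran from 412 through 459 to 509.5, 423 through 457 to 608 and 406 through 507 to 759 CPM at the 3 times. After reversal, Cyp27a1 ran from 551 through 646 to 788, 616 through 665 to 701 and 323 through 614 to 739.9 CPM. Vehicle mice lay below all lean mice at 24 weeks, and at 8 and 16 weeks the reversal mice lay above all vehicle and all semaglutide mice. Its diet change was -0.90 ± 0.13, semaglutide gave 0.26 ± 0.12, 0.25 ± 0.12 and 0.57 ± 0.12, of which the 24-week value passed (adjusted p = 0.00041), and reversal gave 0.78 ± 0.12, 0.72 ± 0.12 and 0.74 ± 0.12, all passing. Semaglutide minus reversal gave -0.53 ± 0.13 and -0.47 ± 0.12 at 8 and 16 weeks (adjusted p = 0.0051 and 0.0057), and at 24 weeks the difference was -0.17 ± 0.12 (0.32). Against lean mice semaglutide gave -0.32 ± 0.12, a call lost in 7 of 10 alternatives, among them the fit without Semaglutide_24_w replicate 8 (adjusted p = 0.081).

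Cyp7b1 (ENSMUSG00000039519, GRCm38 chr3:18071950-18243338, - strand), the oxysterol 7-alpha-hydroxylase, fell further. Cyp7b1 in lean mice ran from 132 through a median of 251 to 322 CPM, and with vehicle from 39.3 through 57.98 to 70.2 after 8 weeks, 31.9 through 53.4 to 107 after 16 and 32.98 through 46.3 to 86.3 after 24. With semaglutide, Cyp7b1 ran from 64.6 through 78.4 to 129.9, 56.2 through 87.5 to 147 and 64.6 through 97.3 to 183 CPM at the 3 times. After reversal, Cyp7b1 ran from 81.01 through 103 to 204, 77.5 through 129 to 188 and 44.4 through 165 to 211 CPM. No vehicle mouse at 24 weeks reached the lowest lean mouse, and the medians of the treated groups stood between. The diet change was -2.26 ± 0.26, a fitted ratio of 0.209 (adjusted p = 1.4e-11). Semaglutide raised it by 0.71 ± 0.23 at 16 weeks and 0.99 ± 0.24 at 24 weeks (adjusted p = 0.033 and 0.0015), the 8-week value of 0.66 ± 0.23 did not pass, and the 16-week call was lost in 4 of 8 alternatives, among them the fit without 3 libraries whose library numbers belong to a second series (adjusted p = 0.066). Reversal raised it by 1.13 ± 0.23, 1.18 ± 0.23 and 1.496 ± 0.25. Against reversal, the Cyp7b1 difference under semaglutide was between -0.50 and -0.48 at the 3 times and did not pass, with a 95% interval of -0.96 to -0.04 at 24 weeks, where it became -0.63 (adjusted p = 0.034) without Chow_reversal_24_w replicate 7 and -0.67 (0.046) without Semaglutide_24_w replicate 2.

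Cyp2c70 gave a diet change of -1.03 ± 0.24, which shrank to -0.51 (adjusted p = 0.027) without Chow_Vehicle_24_w replicate 5. Its group medians were 401 CPM in lean mice, 293 with vehicle, 387 with semaglutide and 366 after reversal at 24 weeks, and semaglutide passed at 16 weeks alone (0.63 ± 0.22, adjusted p = 0.046), a call lost in 4 of 8 alternatives. Against lean mice, semaglutide at 24 weeks gave -0.67 ± 0.23 with that lean library and -0.13 (adjusted p = 0.65) without it.

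Of the 5 genes of ring and side chain steps, all 5 fell with the diet, where 22% of all genes tested were lower. The changes ran from -0.31 ± 0.10 for Scp2 and -0.44 ± 0.12 for the peroxisomal oxidase Acox2 to -0.91 ± 0.13 for Hsd3b7. With library totals alone the diet calls of Scp2 (0.12), Acox2 (-0.01, adjusted p = 0.93) and Akr1d1 (-0.36, adjusted p = 0.21) were lost. Amacr (ENSMUSG00000022244, GRCm38 chr15:10981756-10996626, + strand), the racemase that prepares the side chain for peroxisomal shortening, had narrow ranges in every group. Amacr in lean mice ran from 127 through a median of 157 to 163 CPM, and with vehicle from 89.9 through 101 to 118 after 8 weeks, 83.3 through 99.9 to 109 after 16 and 76.6 through 92.8 to 100.2 after 24. With semaglutide, Amacr ran from 109.8 through 115 to 128, 88.7 through 113 to 139 and 86.5 through 103 to 139.5 CPM at the 3 times. After reversal, Amacr ran from 116 through 127 to 139.9, 105 through 139 to 154 and 87.1 through 133 to 152 CPM. The lean and vehicle groups at 24 weeks did not overlap. Its diet change was -0.71 ± 0.09 (adjusted p = 1.1e-09), reversal gave 0.31 ± 0.09, 0.45 ± 0.09 and 0.46 ± 0.09 (adjusted p = 0.0048, 2.8e-05 and 3.4e-05), and semaglutide gave 0.20 ± 0.09, 0.21 ± 0.09 and 0.20 ± 0.09, none of which passed. For Amacr, semaglutide minus reversal was -0.26 ± 0.09 at 24 weeks (adjusted p = 0.034), a call lost in 4 of 10 alternatives, among them the fit without Semaglutide_24_w replicate 2 (adjusted p = 0.064). The reversal calls of Amacr were all lost with library totals alone (0.04, 0.20 and 0.15).

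Akr1d1, the 5-beta-reductase that bends the steroid ring, rose with reversal by 0.57 ± 0.22, 0.87 ± 0.22 and 0.67 ± 0.23 and with semaglutide at 16 weeks by 0.64 ± 0.22, a call lost in 5 of 8 alternatives. The reversal calls of Akr1d1 were lost in 2 of 8, 0 of 7 and 2 of 9 alternatives, those at 8 and 24 weeks with library totals alone among them (adjusted p = 0.28 and 0.23). Hsd3b7 rose with reversal at all 3 times (0.32 to 0.49) and with semaglutide at 24 weeks (0.50 ± 0.12), and these calls were lost with library totals alone. Most of its transcript letters are not its own, since 54.8% of its 31-base words also occur in Gm49388, an annotated gene at the same place, and its level is uncertain. Acox2 and Scp2 passed in none of the 6 treatment comparisons, and 33.4% of the 31-base words of Scp2 also occur in the pseudogene Scp2-ps2.

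**Figure D2:**
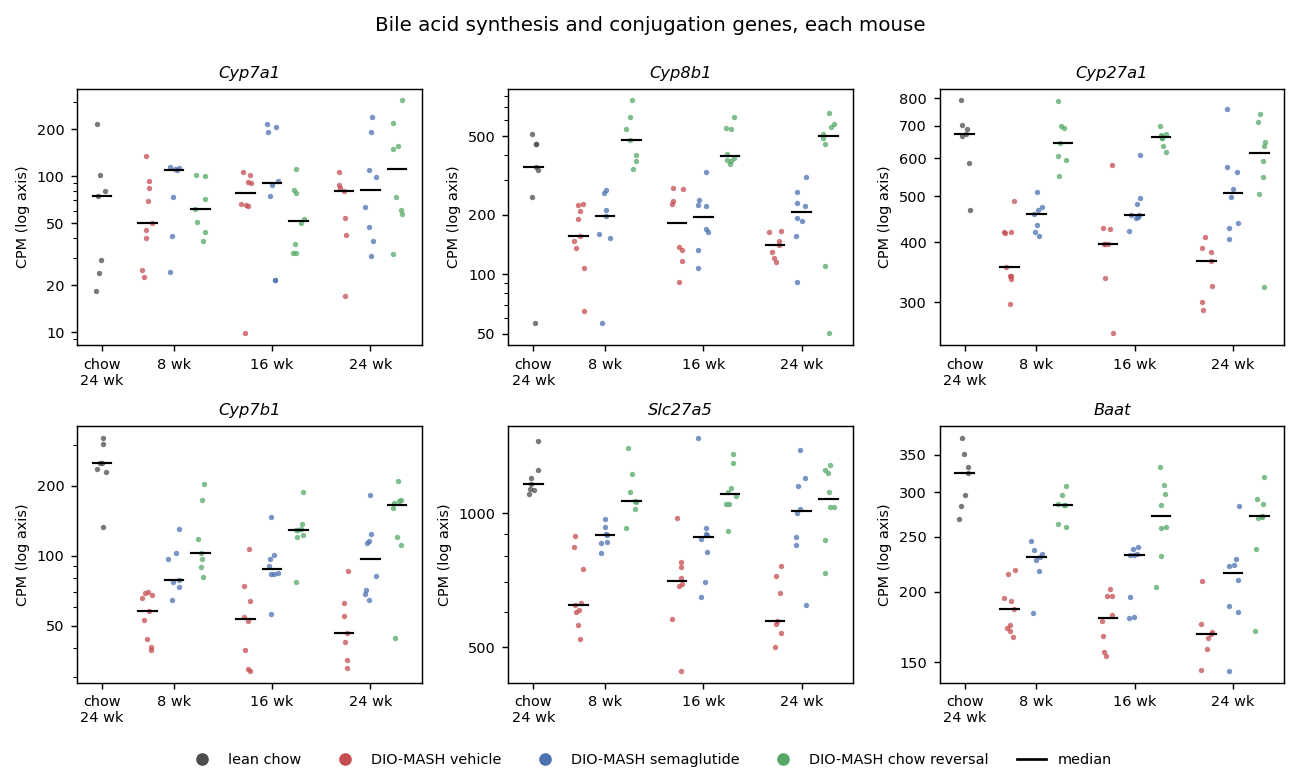
CPM on a log axis of 6 synthesis and conjugation genes, each point a mouse and each line a group median, with lean chow mice at the left and the vehicle, semaglutide and chow reversal groups at 8, 16 and 24 weeks. Cyp7a1 overlaps in all groups, Cyp8b1 medians are highest in lean and reversal mice, and Cyp7b1 in vehicle mice at 24 weeks lies between 32.98 and 86.3 CPM, below all lean mice.

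The conjugation pair fell with the diet and rose with reversal at all times and with semaglutide at 24 weeks. Slc27a5 (ENSMUSG00000030382, GRCm38 chr7:12988346-12998192, - strand) is the liver bile acyl-CoA synthetase that activates bile acids. Slc27a5 in lean mice ran from 1104 through a median of 1168 to 1456 CPM, and with vehicle from 520.5 through 622 to 887 after 8 weeks, 442 through 703 to 979 after 16 and 500.4 through 572 to 761 after 24. With semaglutide, Slc27a5 ran from 817 through 894 to 974, 648 through 885 to 1480.3 and 621 through 1014 to 1391 CPM at the 3 times. After reversal, Slc27a5 ran from 925 through 1067 to 1408, 913 through 1107 to 1361 and 735 through 1077 to 1283 CPM. Lean mice lay above all vehicle mice at 24 weeks, and the medians of all 6 treated groups lay between the vehicle and lean medians. The diet change was -0.97 ± 0.14 (adjusted p = 2.7e-08), semaglutide gave 0.41 ± 0.13, 0.37 ± 0.13 and 0.72 ± 0.14 (adjusted p = 0.046, 0.054 and 6.5e-05), and reversal gave 0.74 ± 0.13, 0.68 ± 0.13 and 0.79 ± 0.14. The 8-week semaglutide call was lost in 5 of 8 alternatives, among them the fit without Vehicle_8_w replicate 7 (adjusted p = 0.11).

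Baat (ENSMUSG00000039653, GRCm38 chr4:49489422-49506557, - strand) joins the activated bile acid to taurine or glycine. Baat in lean mice ran from 269 through a median of 325 to 375 CPM, and with vehicle from 166 through 186 to 218 after 8 weeks, 154 through 179.6 to 202 after 16 and 145 through 168 to 209 after 24. With semaglutide, Baat ran from 183 through 231 to 246, 179.6 through 232 to 239.6 and 145 through 216 to 283 CPM at the 3 times. After reversal, Baat ran from 259.9 through 285 to 308, 204 through 272 to 332 and 171 through 272 to 319.7 CPM. At 8 and 16 weeks no reversal mouse overlapped the vehicle mice, and at 8 weeks none overlapped the semaglutide mice. Baat fell with the diet by 0.91 ± 0.11 (adjusted p = 3.1e-11) and rose with reversal by 0.59 ± 0.10, 0.60 ± 0.10 and 0.64 ± 0.10. Semaglutide gave 0.26 ± 0.10, 0.27 ± 0.10 and 0.31 ± 0.10, of which the last passed (adjusted p = 0.021), a call lost in 5 of 10 alternatives, with an adjusted p of 0.59 under library totals alone and 0.08 without Semaglutide_24_w replicate 8, while the 16-week value passed without Semaglutide_16_w replicate 3 (0.29, adjusted p = 0.045). Against reversal, the Baat difference under semaglutide was -0.33 at each time (adjusted p = 0.041, 0.019 and 0.014), and each of these calls was lost in 1 or 2 alternatives, such as library totals alone at 8 and 16 weeks and only the groups compared at 24 weeks (0.18).

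Among the uptake carriers, all 5 fell with the diet, where 22% of all genes tested were lower. Slc10a1 (ENSMUSG00000021135, GRCm38 chr12:80953183-80968705, - strand), the sodium-dependent taurocholate carrier NTCP, passed in all 6 treatment comparisons. Slc10a1 in lean mice ran from 459 through a median of 598 to 708 CPM, and with vehicle from 132 through 185 to 263 after 8 weeks, 109.9 through 150.4 to 254 after 16 and 111 through 142 to 188 after 24. With semaglutide, Slc10a1 ran from 239.8 through 394 to 552, 282 through 359 to 468 and 256.2 through 352 to 441 CPM at the 3 times. After reversal, Slc10a1 ran from 452 through 599.8 to 706, 502 through 632 to 752 and 95.7 through 556 to 731 CPM. Lean mice did not overlap vehicle mice, semaglutide mice at 16 and 24 weeks did not overlap vehicle mice, and at 8 weeks 6 of 7 lay above every vehicle mouse. The reversal mice overlapped the lean range at all 3 times, and at 24 weeks 3 of 8 lay below every lean mouse. Slc10a1 fell with the diet by 2.02 ± 0.21, a fitted ratio of 0.246 (adjusted p = 6.3e-13). Semaglutide raised it by 1.01 ± 0.19, 1.08 ± 0.19 and 1.26 ± 0.20 (fitted ratios 2.02, 2.12 and 2.39) and reversal by 1.55 ± 0.19, 1.85 ± 0.20 and 1.79 ± 0.20 (2.93, 3.61 and 3.47), with all 6 calls kept in every alternative run. For Slc10a1, semaglutide minus reversal came to -0.77 ± 0.19 after 16 weeks (adjusted p = 0.0045) and -0.54 ± 0.19 after 24 (0.042), and the latter call was lost in 6 of 10 alternatives, among them the fits without Semaglutide_24_w replicate 2 or 8 (adjusted p = 0.081 in each). Against lean mice semaglutide gave -0.77 ± 0.20 at 24 weeks (adjusted p = 0.0016), where the 8 semaglutide mice lay below all 7 lean mice.

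The organic anion carriers of the Slco family take up bile acids without sodium. Slco1a1 had the largest diet change of the 32, -4.98 ± 0.99: lean mice ran from 32.9 to 402 CPM with a median of 282, and vehicle mice at 24 weeks from 0.44 to 32.4 with a median of 2.59. The lowest lean value is that of replicate 5, the others being 265 CPM or more. The spread among DIO-MASH mice was wide, 0.52 to 50.9 CPM with vehicle at 16 weeks and 1.29 to 153 CPM with semaglutide at 24 weeks. Reversal raised it by 2.71 ± 0.82, 2.82 ± 0.84 and 3.36 ± 0.91, all passing. Semaglutide gave 2.14 ± 0.81, 1.87 ± 0.82 and 2.099 ± 0.87, which did not pass (adjusted p = 0.099, 0.12 and 0.067) and have a 95% interval of 0.36 to 3.84 at 24 weeks, where DESeq2 gave an adjusted p of 0.035. Without Semaglutide_24_w replicate 2, the highest of its group, the 24-week value was 1.24 (adjusted p = 0.32) and semaglutide minus reversal -2.15 (0.075) in place of -1.26. The direct difference of semaglutide from reversal did not pass at any time.

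Slco1a4 fell with the diet (-1.31 ± 0.24) and rose with semaglutide at 16 and 24 weeks (0.76 ± 0.22 and 0.85 ± 0.23) and with reversal at all times (0.78 ± 0.22, 1.099 ± 0.22 and 0.93 ± 0.23). The 16- and 24-week semaglutide calls of Slco1a4 were lost in 3 of 8 and 1 of 10 alternatives, and its 8-week reversal call in 1 of 8. Other genes hold 4% of the 31-base words of Slco1a1 and 5.03% of those of Slco1a4, most of them in other Slco1a genes. Slco1b2 (-0.82 ± 0.20 with the diet) and Slco2b1 (-0.52 ± 0.13) rose with reversal at 16 and 24 weeks by 0.37 to 0.48, and Slco2b1 also with semaglutide at 24 weeks (0.36 ± 0.13). All of these changes of Slco1b2 and Slco2b1 were lost with library totals alone, the diet falls included (-0.39, adjusted p = 0.098, and -0.09, adjusted p = 0.6). Over all alternatives the reversal calls of Slco1b2 were lost in 2 of 7 and 4 of 9, those of Slco2b1 in 1 of 7 and 2 of 9, and the semaglutide call of Slco2b1 in 3 of 10.

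Of the 7 canalicular genes 3 rose and 1 fell with the diet, where 25.8% of all genes tested were higher and 22% lower. The 1 of 7 that fell is not above that share. Abcb11 (ENSMUSG00000027048, GRCm38 chr2:69238282-69342616, - strand), the bile salt export pump, was the one that fell. Abcb11 in lean mice ran from 411 through a median of 710.2 to 899.7 CPM, and with vehicle from 363 through 456 to 489 after 8 weeks, 246 through 381 to 401 after 16 and 234 through 329 to 359.9 after 24. With semaglutide, Abcb11 ran from 405 through 541 to 567.6, 248 through 432 to 625.3 and 361 through 409 to 525 CPM at the 3 times. After reversal, Abcb11 ran from 401 through 475 to 657, 447 through 562 to 720.4 and 386 through 518 to 704 CPM. Vehicle mice at 24 weeks lay below all lean mice, and all semaglutide and reversal mice at 24 weeks lay above all 7 vehicle mice. Abcb11 fell with the diet by 1.13 ± 0.15 (adjusted p = 1e-09). Reversal gave 0.20 ± 0.14, 0.71 ± 0.14 and 0.80 ± 0.14 (adjusted p = 0.26, 3.4e-05 and 5.2e-06) and semaglutide 0.28 ± 0.14, 0.33 ± 0.14 and 0.43 ± 0.14 (adjusted p = 0.24, 0.093 and 0.021). The semaglutide call at 24 weeks was lost with library totals alone (0.19). Against reversal, the Abcb11 difference under semaglutide was -0.37 ± 0.14 at 24 weeks, a call lost in 8 of 10 alternatives, among them the fits without Semaglutide_24_w replicate 2 or 8 (adjusted p = 0.087 and 0.082). Within vehicle mice all 7 at 24 weeks lay below all 9 at 8 weeks (-0.50 ± 0.14, adjusted p = 0.069, and 0.037 in DESeq2). Its window above is the one of the 4 shown that holds the inverted repeat of FXR.

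Abcg5 (ENSMUSG00000040505, GRCm38 chr17:84658234-84683011, - strand) and Abcg8 (ENSMUSG00000024254, GRCm38 chr17:84676302-84700333, + strand) encode the partner chains of the canalicular pump that moves cholesterol, not bile acids, into bile. Both rose with the diet. Abcg5 in lean mice ran from 46.6 through a median of 66.2 to 72.8 CPM, and with vehicle from 125 through 199 to 255 after 8 weeks, 109.7 through 191 to 292 after 16 and 133 through 168 to 208 after 24. With semaglutide, Abcg5 ran from 228 through 269 to 334, 194 through 249 to 311 and 140.4 through 249.9 to 317 CPM at the 3 times. After reversal, Abcg5 ran from 46.6 through 61.6 to 71.02, 48.3 through 58.7 to 86.9 and 29.3 through 53.999 to 80.6 CPM. All vehicle mice lay above all lean mice at 24 weeks, all reversal mice lay below all vehicle mice at 8, 16 and 24 weeks, and all semaglutide mice lay above all reversal mice at all 3 times. Abcg5 rose with the diet by 1.43 ± 0.19, a fitted ratio of 2.701 (adjusted p = 9.2e-10), and fell with reversal by 1.73 ± 0.18, 1.59 ± 0.17 and 1.61 ± 0.18. Semaglutide gave 0.46 ± 0.17, 0.40 ± 0.17 and 0.54 ± 0.18, the last passing (adjusted p = 0.018, and 0.16 with library totals alone). For Abcg5, semaglutide minus reversal was 2.18 ± 0.19, 1.99 ± 0.18 and 2.16 ± 0.18, fitted ratios of 4.55, 3.98 and 4.46 (adjusted p = 7.8e-15, 2.6e-14 and 8.5e-16).

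Abcg8 in lean mice ran from 77.02 through a median of 119.5 to 128 CPM, and with vehicle from 143 through 211 to 294 after 8 weeks, 106 through 215 to 344 after 16 and 144 through 173 to 199 after 24. With semaglutide, Abcg8 ran from 281 through 325 to 410.1, 193 through 285 to 355 and 213 through 282 to 393 CPM at the 3 times. After reversal, Abcg8 ran from 70.6 through 92.5 to 109, 74.8 through 94.9 to 143 and 35.3 through 85.4 to 146 CPM. As with Abcg5, all semaglutide mice lay above all reversal mice at all 3 times. Abcg8 rose with the diet by 0.60 ± 0.20 (adjusted p = 0.0081), fell with reversal by 1.24 ± 0.19, 1.06 ± 0.18 and 0.99 ± 0.19, and gave 0.58 ± 0.18, 0.41 ± 0.18 and 0.73 ± 0.19 with semaglutide (adjusted p = 0.041, 0.13 and 0.0032). At 24 weeks all 8 semaglutide mice lay above all 7 vehicle mice, and that call held in all 10 alternatives, while the 8-week call was lost in 4 of 8, among them the fit without Vehicle_8_w replicate 7 (adjusted p = 0.088). Against reversal, the Abcg8 difference under semaglutide was 1.82 ± 0.20, 1.46 ± 0.19 and 1.71 ± 0.19. Against lean mice at 24 weeks, semaglutide mice were higher by 1.98 ± 0.19 for Abcg5 and 1.33 ± 0.19 for Abcg8, and reversal mice gave -0.18 ± 0.18 and -0.38 ± 0.19, which did not pass. The annotated exons of this pair overlap on opposite strands by 82 bases, 3.02% of Abcg5 and 2.19% of Abcg8, and whether the counting used strand is not given in the sources used here.

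Abcb1a (ENSMUSG00000040584, GRCm38 chr5:8660077-8748575, + strand), a multidrug exporter of low level here, also rose with the diet. Abcb1a in lean mice ran from 2.65 through a median of 3.61 to 6.73 CPM, and with vehicle from 10.5 through 13.3 to 17.5 after 8 weeks, 5.57 through 12.9 to 18.5 after 16 and 10.1 through 14.6 to 19.9 after 24. With semaglutide, Abcb1a ran from 3.54 through 8.66 to 11.6, 6.19 through 8.48 to 11.5 and 1.31 through 7.997 to 16.8 CPM at the 3 times. After reversal, Abcb1a ran from 2.41 through 6.24 to 6.98, 3.02 through 6.89 to 9.19 and 4.14 through 5.79 to 10.2 CPM. Lean mice lay below all vehicle mice at 24 weeks. The diet change was 1.87 ± 0.28 (adjusted p = 5.7e-08), reversal gave -1.31 ± 0.27, -0.999 ± 0.26 and -1.32 ± 0.26, all passing, and semaglutide gave -0.71 ± 0.26, -0.53 ± 0.25 and -0.84 ± 0.26, the last passing (adjusted p = 0.013, and 0.094 when only the groups compared entered the fit). Its neighbour Abcb1b shares 21.7% of its 31-base words, and reads could be split between them.

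The remaining canalicular genes passed in few comparisons. Abcc2, which exports bilirubin conjugates, passed in no comparison. Abcb4, the phospholipid floppase, gave 0.05 ± 0.12 with the diet (0.48, adjusted p = 0.00095, with library totals alone), fell with reversal at 8 weeks by 0.41 ± 0.11 and with semaglutide at 16 weeks by 0.38 ± 0.11, the latter call being lost in 3 of 8 alternatives. Atp8b1, the aminophospholipid flippase, passed once: semaglutide was above reversal by 0.50 ± 0.16 at 8 weeks (adjusted p = 0.036), which was lost without the filter on low counts (0.063).

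**Figure D3:**
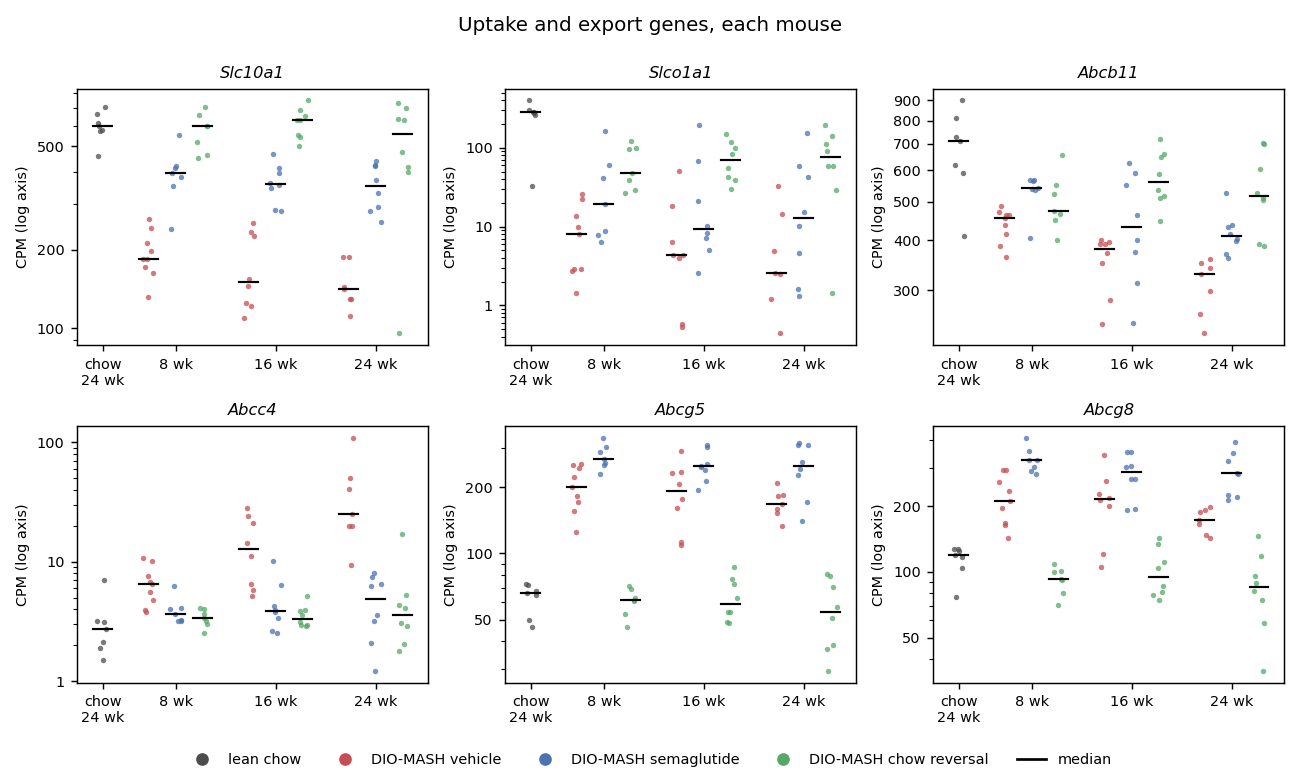
CPM on a log axis of 6 transport genes, each point a mouse and each line a group median, with lean chow mice at the left and vehicle, semaglutide and chow reversal at 8, 16 and 24 weeks. Slc10a1 medians are higher with semaglutide than with vehicle and higher again after reversal, Abcg5 and Abcg8 are low in lean and reversal mice and high in vehicle and semaglutide mice, and Abcc4 in vehicle mice spreads from 3.77 to 108 CPM over the 3 times.

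On the sinusoidal side, Abcc4 (ENSMUSG00000032849, GRCm38 chr14:118482692-118706219, - strand), an exporter that can carry bile acids back to blood, was the member that rose most with the diet. It was also the only one higher in vehicle mice at 24 weeks than at 8 weeks. Lean mice were sampled at 24 weeks alone, so time on the diet and age cannot be told apart there. Abcc4 in lean mice ran from 1.504 through a median of 2.76 to 7.03 CPM, and with vehicle from 3.77 through 6.57 to 10.7 after 8 weeks, 5.19 through 12.8 to 27.9 after 16 and 9.47 through 25.1 to 108 after 24. With semaglutide, Abcc4 ran from 3.17 through 3.66 to 6.33, 2.56 through 3.89 to 10.2 and 1.22 through 4.896 to 8.02 CPM at the 3 times. After reversal, Abcc4 ran from 2.52 through 3.395 to 4.13, 2.92 through 3.35 to 5.19 and 1.81 through 3.599 to 17.02 CPM. Every vehicle mouse at 24 weeks lay above every lean mouse, and all 8 semaglutide mice at 24 weeks lay below all 7 vehicle mice. The diet change was 3.65 ± 0.43, a fitted ratio of 12.5 (adjusted p = 3.9e-11), and 3.14 without Vehicle_24_w replicate 1. Vehicle mice at 24 weeks were above those at 8 weeks by 2.56 ± 0.36 (adjusted p = 9.1e-07), and by 2.06 without that mouse. Semaglutide gave -0.73 ± 0.38, -1.63 ± 0.37 and -3.005 ± 0.39 and reversal -0.93 ± 0.39, -2.02 ± 0.38 and -2.95 ± 0.39, passing at 16 and 24 weeks in both. Semaglutide minus reversal lay between -0.06 and 0.39 and did not pass.

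The change of each effect from 8 to 24 weeks was tested for all members. None of the 32 passed for semaglutide and none for reversal in edgeR (0% of all genes were higher and 0.0604% lower for semaglutide, and 0.00671% and 0.208%, 0.215% either way, for reversal), with 2 and 5 at an unadjusted p under 0.05, where 4.57% and 13.6% of all genes were, shares near those of the members, and in DESeq2 Abcc4 alone passed in both. For Abcc4 the change was -2.27 ± 0.53 for semaglutide (adjusted p = 0.082, and 0.017 in DESeq2) and -2.01 ± 0.54 for reversal (0.098, and 0.036 in DESeq2). Without Vehicle_24_w replicate 1, the highest Abcc4 library of its group, these were -1.77 and -1.503. Between vehicle mice at 24 and 8 weeks 1 member was higher, Abcc4, and 1 lower, Hsd3b7 (-0.44 ± 0.12, adjusted p = 0.049), where 0.731% and 0.0604% of all genes were (0.792% either way). The Hsd3b7 call was lost in 5 of 9 alternatives, for example without Vehicle_24_w replicate 1 (adjusted p = 0.07) or without Vehicle_8_w replicate 7 (0.066).

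Abcc3, which exports glucuronides and some bile acids to blood, gave -0.16 ± 0.16 with the diet and fell with semaglutide at 16 and 24 weeks by 0.48 ± 0.15 and 0.42 ± 0.15, while reversal gave 0.20 ± 0.15 and 0.09 ± 0.15. For Abcc3, semaglutide minus reversal was -0.68 ± 0.15 at 16 weeks and -0.51 ± 0.15 at 24 weeks (adjusted p = 0.00094 and 0.012), and the 24-week call was lost with only the groups compared (adjusted p = 0.12). At 8 weeks all 7 semaglutide mice lay below all 7 reversal mice, at -0.41 ± 0.16 (adjusted p = 0.11), which passed in 3 of 7 alternatives (adjusted p = 0.01, 0.0497 and 0.043). The falls under semaglutide were lost in 4 of 8 and 7 of 10 alternatives, among them the fits without the second-series libraries (-0.27 and -0.32) and the 24-week one without Vehicle_24_w replicate 1 (-0.35, adjusted p = 0.099) or without Semaglutide_24_w replicate 2 or 8 (0.13 and 0.091). Slc51b, the other chain of the organic solute exporter, stayed at or under 2.66 CPM. It rose with the diet (1.497 ± 0.51), fell with semaglutide at 24 weeks (-1.25 ± 0.48, adjusted p = 0.049, lost in 5 of 10 alternatives, 2 of them without Semaglutide_24_w replicate 2 or 8) and with reversal at 8 weeks (-1.49 ± 0.50). Semaglutide at 8 weeks gave -1.49 ± 0.49 (adjusted p = 0.052), which passed in 4 of 8 alternatives, DESeq2 among them (0.032). At 24 weeks reversal gave -1.02 ± 0.48 with Chow_reversal_24_w replicate 7 and -1.91 (adjusted p = 0.0011) without it.

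All 5 tested control genes fell with the diet, where 22% of all genes tested were lower. Nr1h4 (ENSMUSG00000047638, GRCm38 chr10:89454234-89533585, - strand) encodes FXR itself. Nr1h4 in lean mice ran from 89.6 through a median of 99.8 to 124 CPM, and with vehicle from 64.8 through 73.6 to 85.1 after 8 weeks, 57.6 through 73.6 to 88.8 after 16 and 49.7 through 77.7 to 88.5 after 24. With semaglutide, Nr1h4 ran from 67.2 through 85.4 to 107, 64.6 through 85.3 to 128 and 73.2 through 87.2 to 113 CPM at the 3 times. After reversal, Nr1h4 ran from 89.1 through 102 to 113, 84.1 through 101 to 125 and 54.2 through 102 to 144 CPM. Lean and vehicle mice at 24 weeks did not overlap. Nr1h4 fell with the diet by 0.46 ± 0.13 (adjusted p = 0.0015), rose with reversal by 0.48 ± 0.12, 0.47 ± 0.12 and 0.47 ± 0.12, and gave 0.20 ± 0.12, 0.27 ± 0.12 and 0.29 ± 0.12 with semaglutide, none passing. The diet and reversal calls of Nr1h4 were all lost with library totals alone (-0.04, then 0.21, 0.21 and 0.15).

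Nr0b2 (ENSMUSG00000037583, GRCm38 chr4:133553376-133556536, + strand), the repressor SHP and a direct FXR target, varied far more between mice. Nr0b2 in lean mice ran from 11.8 through a median of 70.4 to 142 CPM, and with vehicle from 24.996 through 38.02 to 59.9 after 8 weeks, 12.2 through 35.8 to 55.7 after 16 and 12.7 through 18.97 to 43.6 after 24. With semaglutide, Nr0b2 ran from 23.5 through 39.4 to 67.3, 27.9 through 58.98 to 86.03 and 17.3 through 57.6 to 114 CPM at the 3 times. After reversal, Nr0b2 ran from 38.8 through 71.3 to 90.7, 23.01 through 40.3 to 85.5 and 6.99 through 34.6 to 67.9 CPM. The groups overlapped at every comparison. Nr0b2 fell with the diet by 1.54 ± 0.39 (adjusted p = 0.00059) and rose with semaglutide at 24 weeks by 1.22 ± 0.37 (adjusted p = 0.012), where 6 of 8 mice lay above every vehicle mouse, and both calls held in all alternatives. The 8- and 16-week semaglutide values were 0.10 ± 0.35 and 0.87 ± 0.35. With reversal the values were 0.75 ± 0.35, 0.63 ± 0.35 and 0.52 ± 0.37, none passing (at 8 weeks the adjusted p was 0.0021 when only the groups compared entered the fit), and the direct difference between treatments did not pass at any time. It was -0.65 ± 0.38, 0.25 ± 0.35 and 0.70 ± 0.35 at 8, 16 and 24 weeks (95% intervals -1.401 to 0.11, -0.46 to 0.95 and -0.01 to 1.404), and the 8-week value passed when only the groups compared entered the fit (-0.66, adjusted p = 0.028).

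Fgfr4 (ENSMUSG00000005320, GRCm38 chr13:55152640-55168759, + strand), the hepatocyte receptor for FGF15, fell with the diet, and rose with reversal and with semaglutide at 8 and 24 weeks. Fgfr4 in lean mice ran from 43.6 through a median of 52.8 to 57.9 CPM, and with vehicle from 29.7 through 32.3 to 37.3 after 8 weeks, 28.1 through 35.9 to 42.2 after 16 and 26.7 through 29.96 to 33.8 after 24. With semaglutide, Fgfr4 ran from 34.6 through 45.01 to 48.1, 22.4 through 37.04 to 45.3 and 24.7 through 43.3 to 56.2 CPM at the 3 times. After reversal, Fgfr4 ran from 41.6 through 43.5 to 52.7, 38.6 through 44.3 to 57.9 and 38.9 through 45.1 to 66.6 CPM. Lean mice lay above all vehicle mice at 24 weeks, and reversal mice lay above all vehicle mice at 8 and 24 weeks. The diet change was -0.77 ± 0.12, semaglutide gave 0.40 ± 0.11, 0.02 ± 0.11 and 0.49 ± 0.12 (adjusted p = 0.022, 0.95 and 0.0014), and reversal gave 0.46 ± 0.11, 0.41 ± 0.11 and 0.69 ± 0.12. Both passing semaglutide values, and those of reversal at 8 and 16 weeks, were lost with library totals alone. Semaglutide minus reversal at 16 weeks was -0.39 ± 0.11 (adjusted p = 0.018), lost in 4 of 8 alternatives.

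Klb (ENSMUSG00000029195, GRCm38 chr5:65348314-65384007, + strand), the co-receptor beta-klotho, passed in all 6 treatment comparisons, which no other member but Slc10a1 did. Klb in lean mice ran from 20.5 through a median of 31.9 to 33.8 CPM, and with vehicle from 13.1 through 18.4 to 21.4 after 8 weeks, 9.74 through 13.8 to 18.8 after 16 and 9.62 through 12.96 to 15.01 after 24. With semaglutide, Klb ran from 21.4 through 27.4 to 31.7, 17.2 through 23.5 to 30.3 and 18.01 through 22.3 to 28.1 CPM at the 3 times. After reversal, Klb ran from 24.03 through 27.4 to 33.1, 19.5 through 25.8 to 32.9 and 9.95 through 25.01 to 29.98 CPM. Lean mice did not overlap vehicle mice, and neither did semaglutide mice at 8 and 24 weeks or reversal mice at 8 and 16 weeks. Klb fell with the diet by 1.21 ± 0.16 (adjusted p = 3e-09), rose with semaglutide by 0.64 ± 0.15, 0.68 ± 0.15 and 0.85 ± 0.16 and with reversal by 0.69 ± 0.15, 0.81 ± 0.15 and 0.81 ± 0.16. All 7 calls held in every alternative run. Against reversal, the Klb difference under semaglutide was between -0.14 and 0.04, with a 95% interval of -0.26 to 0.34 at 24 weeks.

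Nr5a2 (LRH-1), which drives Cyp7a1 and Cyp8b1 and binds the motif shown above, fell with the diet by 0.63 ± 0.10 and rose with semaglutide at 8 and 24 weeks (0.29 ± 0.09 and 0.26 ± 0.10) and with reversal at 16 and 24 weeks (0.26 ± 0.09 and 0.47 ± 0.10). These changes were all lost with library totals alone.

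**Figure D4:**
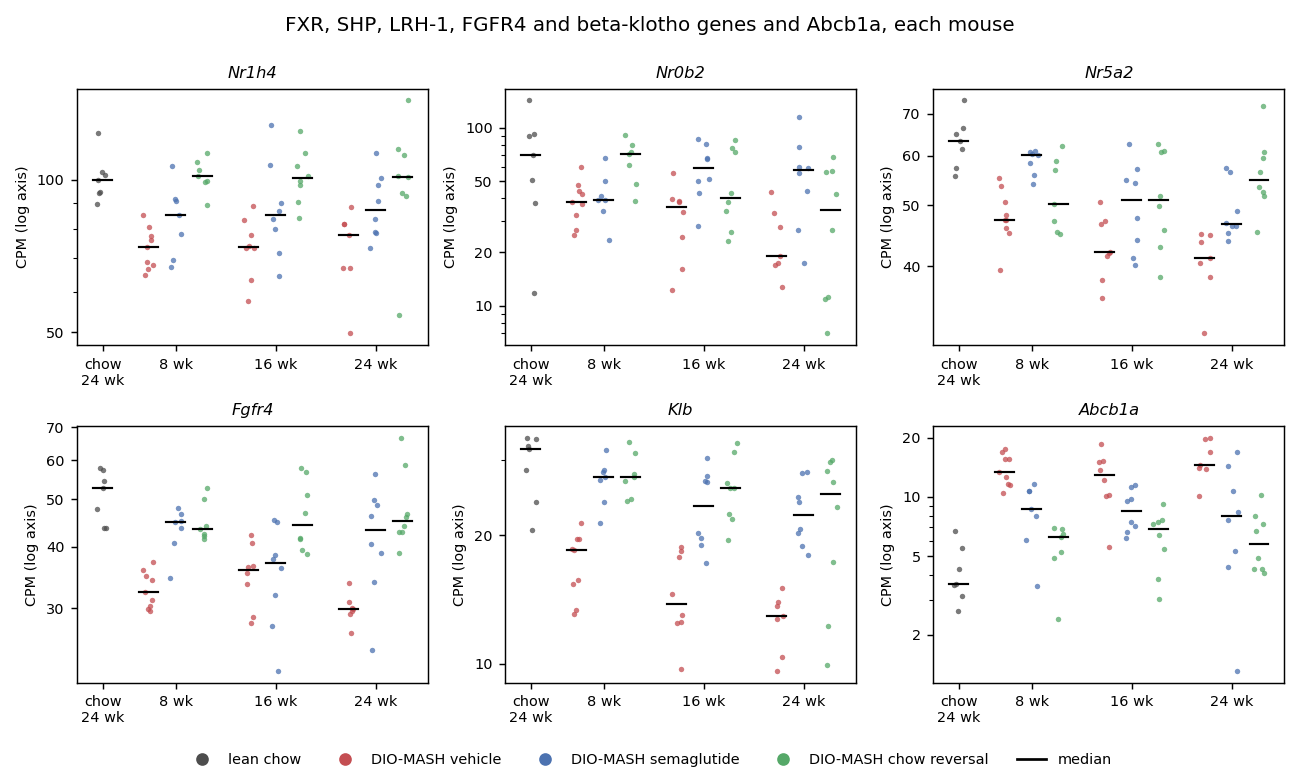
CPM on a log axis of 5 control genes and Abcb1a, each point a mouse and each line a group median, with lean chow mice at the left and vehicle, semaglutide and chow reversal at 8, 16 and 24 weeks. Klb medians are lower in vehicle mice than in lean and treated mice, Nr0b2 spreads from 6.99 to 142 CPM, and Abcb1a runs the other way with medians of 3.61 CPM in lean and 14.6 CPM in vehicle mice at 24 weeks.

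Side by side at 24 weeks, the median levels after semaglutide and reversal were 352 and 556 CPM for Slc10a1, 207 and 502 for Cyp8b1, 249.9 and 53.999 for Abcg5, and 22.3 and 25.01 for Klb, against lean medians of 598, 348, 66.2 and 31.9 CPM. Klb and Abcc4 changed with both treatments and gave no direct difference that passed. Slc10a1, Baat and Cyp27a1 changed with both and were lower with the drug at 1 or more times. Baat, Cyp8b1, Abcg5 and Abcg8 passed in the direct comparison at every time. Some of those calls of Baat and Cyp8b1 were lost in alternatives, as were the direct call of Slc10a1 at 24 weeks and the semaglutide call of Baat against vehicle.

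**Figure D5:**
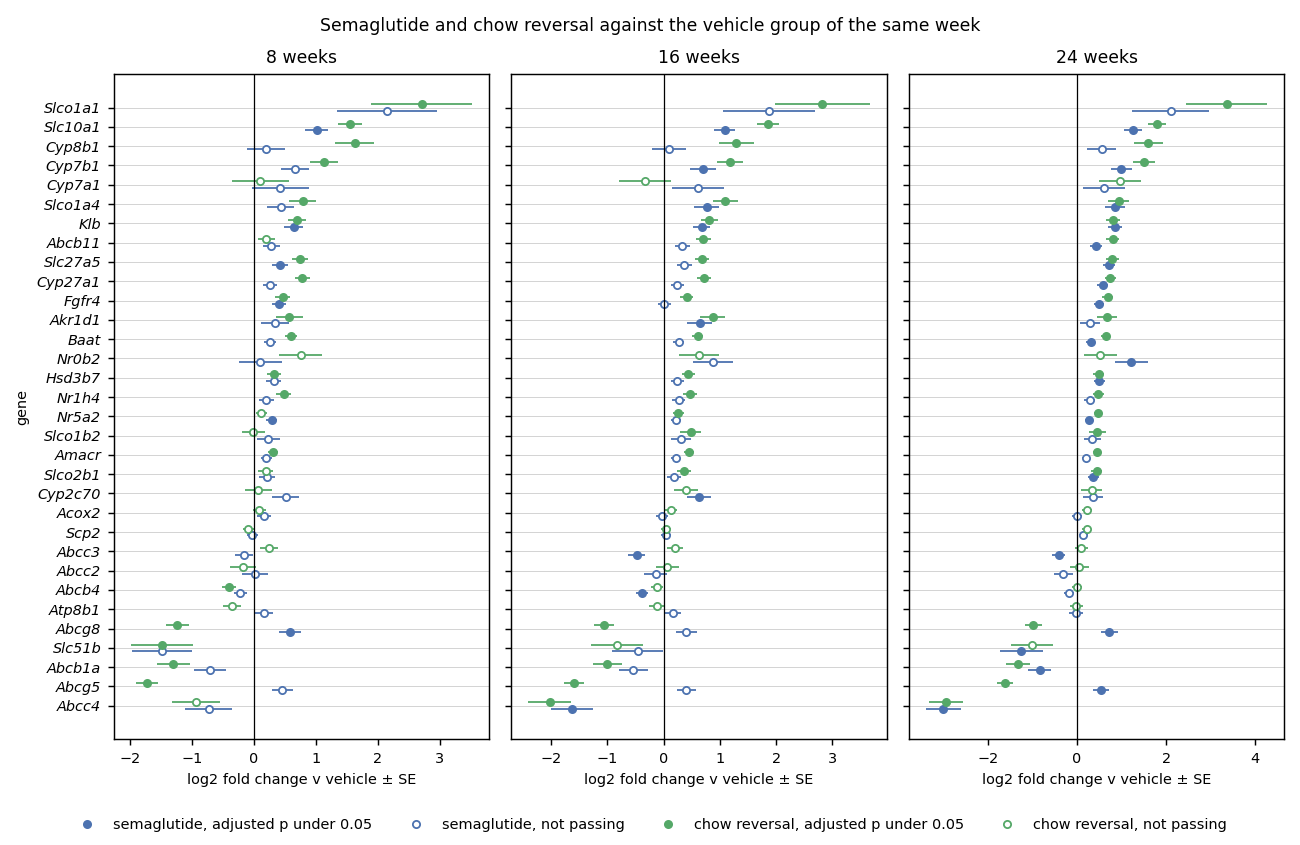
Log2 fold change against the vehicle group of the same week with its SE, for semaglutide and chow reversal at 8, 16 and 24 weeks, with filled points where the adjusted p was under 0.05. Abcg5 and Abcg8 lie to the right of 0 for semaglutide and to the left for reversal at all 3 times, and Cyp8b1 lies near 0.10 to 0.55 for semaglutide and at 1.29 to 1.63 for reversal.

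Other genes of bile acid handling were read from lists by role. Their calls were not followed through the alternatives. Of 17 other enzymes and carriers, 9 were lower and 2 higher with the diet, 3 higher with semaglutide at 8 weeks, 3 higher and 1 lower at 16 weeks and 5 higher and 3 lower at 24 weeks, and 6 higher and 2 lower, 6 and 2, and 5 and 3 with reversal. Over all genes 22% were lower and 25.8% higher with the diet. At 8, 16 and 24 weeks 2.24%, 6.44% and 10.8% were higher with semaglutide and 14.2%, 12.1% and 17% with reversal. Lower were 3.51%, 5.8% and 13.6% with semaglutide and 17.9%, 16.2% and 19.1% with reversal. The counts of lower genes with the treatments are near or below these shares. Sult2a8, a bile acid sulfotransferase, fell with the diet by 3.78 ± 0.49 and rose with semaglutide by 1.55 ± 0.41, 1.75 ± 0.42 and 2.46 ± 0.45 and with reversal by 2.07 ± 0.42, 2.67 ± 0.43 and 3.32 ± 0.47. Cyp39a1, which acts on 24-hydroxycholesterol, changed by -0.86 ± 0.15 with the diet, and Ch25h, which makes 25-hydroxycholesterol, by 3.57 ± 0.72. Ch25h was near the floor, at 0 to 0.211 CPM with a median of 0 in lean mice. With vehicle at 24 weeks Ch25h ran from 0.0956 to 2.39 CPM with a median of 0.447. Akr1c6 changed by -0.77 ± 0.15.

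Of 15 tested regulators, 8 were lower with the diet and 0 higher, and 2, 1 and 8 were higher with semaglutide and 5, 3 and 4 with reversal at the 3 times, with 0 lower. Over all genes 22% were lower and 25.8% higher with the diet. At the 3 times 2.24%, 6.44% and 10.8% were higher with semaglutide and 14.2%, 12.1% and 17% with reversal. Lower were 3.51%, 5.8% and 13.6% with semaglutide and 17.9%, 16.2% and 19.1% with reversal. The 1 of 15 higher with semaglutide at 16 weeks is near the 6.44%. Hnf4a, a driver of many hepatocyte genes, changed by -0.81 ± 0.13 with the diet, 0.53 ± 0.13 with semaglutide and 0.75 ± 0.13 with reversal at 24 weeks. Nr1i3 (CAR) gave -1.16 ± 0.24, 1.08 ± 0.23 and 0.65 ± 0.23, and Rxra, the partner of FXR, -0.37 ± 0.12, 0.32 ± 0.12 and 0.48 ± 0.12.

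Of 13 other genes listed as FXR targets, 9 were lower and 3 higher with the diet, 9 were higher and 0 lower with semaglutide at 24 weeks and 8 higher and 2 lower with reversal at 24 weeks. The 3 of 13 that were higher with the diet are near the 25.8% of all genes. With semaglutide and reversal at 24 weeks 10.8% and 17% of all genes were higher. Lower over all genes were 22% with the diet, 13.6% with semaglutide and 19.1% with reversal. The 2 of 13 lower with reversal are near that share. Among them Kng1 and Fetub fell with the diet (-0.77 ± 0.14 and -1.43 ± 0.22), while Apoc2, the activator of lipoprotein lipase, rose (2.19 ± 0.27). At 24 weeks Apoc2 gave -0.26 ± 0.25 with semaglutide and -1.92 ± 0.26 with reversal, a difference of 1.66 ± 0.25 (adjusted p = 1e-06).

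Abcg5 and Abcg8 are known targets of the oxysterol receptor LXR. Of 11 other LXR and PXR or CAR targets, 3 were higher and 5 lower with the diet, 3 and 2 with semaglutide and 5 and 4 with reversal at 24 weeks, where 25.8% and 22%, 10.8% and 13.6%, and 17% and 19.1% of all genes were, so that the 3 higher with the diet and the 2 lower with semaglutide are near the shares of all genes. Abcg1, an LXR target that exports cholesterol and is also made by macrophages, rose with the diet by 2.76 ± 0.20, and fell with semaglutide by 0.97 ± 0.18 and with reversal by 2.26 ± 0.19 at 24 weeks. Gstm3 rose with the diet (3.78 ± 0.38), and Ces2a and Cyp2c55 fell (-2.34 ± 0.20 and -1.15 ± 0.23). Of 16 clock genes, the time of killing being not given in the sources used here, 5 were lower with the diet, 2 higher with semaglutide and 3 higher with reversal at 24 weeks, the latter counts near the 10.8% and 17% of all genes. Nr1d1 fell with the diet by 1.64 ± 0.23 and rose by 0.97 ± 0.22 with semaglutide and 0.98 ± 0.22 with reversal at 24 weeks, and Clock, Cry2 and Nfil3 gave diet changes of -0.67 ± 0.19, -0.33 ± 0.15 and -0.75 ± 0.29.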

How the data were processed

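RNA from the left lateral liver lobe of 77 mice was made into directional libraries (NEBNext Ultra II) and sequenced on a NextSeq 500, 1 library a mouse. Per the labels and the study's methods, the authors aligned with STAR 2.7.3a to GRCm38, quantified with Salmon 1.2.0, checked quality with FastQC 0.11.9 and Picard, and deposited estimated counts per gene, of which 7.548% were not whole. The strand setting of the counting and the time of day of killing are not given in the sources used here. The counts were rounded. Symbols, exon lengths and coordinates came from GENCODE M21, which gave a symbol to 55227 of 55487 identifiers. All sample columns were used, leaving 0 aside.

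Genes were filtered by group with filterByExpr in edgeR 4.0.16 (R 4.3.3, limma 3.58.1), scaled with TMM and fitted with the quasi-likelihood test over all 10 groups together, common dispersion 0.066. P-values were adjusted by Benjamini-Hochberg over 14904 genes and called under 0.05. Fold changes are log2 with their SE, and intervals are 95%. In simulated data the fit recovered most set changes of 4-fold and above. For semaglutide against vehicle at 24 weeks it recovered 33 of 49 changes of 2-fold and 18 of 49 of 1.5-fold. For the semaglutide effect, 24 minus 8 weeks, these were 20 and 8 of 49. Far fewer genes were changed there than passed in the data, which makes the adjusted threshold stricter, so these shares describe the real tests only loosely. A smaller change that did not pass may have gone unseen. Replicates are separate mice. The members and all gene lists were chosen with earlier results of these data known. Values by mouse are given for the 14 members with the smallest p in a joint test of the 6 treatment effects and for 8 others picked by name, 18 in all since some are both. Up to 4 genes of each further list were named by the same p, and a gene in more than 1 list counts in each. Lcn2 and Saa1 were picked after the values were seen.

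Alternatives were DESeq2 1.42.0, RLE factors, library totals alone, no filter on low counts, only the groups compared, the runs of neighbouring library numbers as a block, leaving out 3 libraries numbered in a second series, and leaving out Vehicle_8_w replicate 7. Leaving out Chow_Vehicle_24_w replicate 5, Chow_reversal_24_w replicate 7, Vehicle_24_w replicate 1, Semaglutide_16_w replicate 3, Semaglutide_24_w replicate 2 or Semaglutide_24_w replicate 8 was chosen after seeing the data. The 3 second-series libraries were all semaglutide mice: Semaglutide_16_w replicates 7 and 8 and Semaglutide_24_w replicate 8. No other group held one, so the series falls on the semaglutide side of comparisons at 16 and 24 weeks. Promoter sequences are RefSeq's on GRCm38.p6. Values of some single genes on the other gene lists are not reported here, although the list counts include them.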

Additional observations from a re-analysis of the deposited data

Results flagged for a closer look

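The values of 18 genes in 10 groups of 7 to 9 mice made 180 sets. In these, 17 values lay far from the rest of their group by Dixon's criterion. For independent sets of normally spread values, about 1 in 20, or 9, would do so by chance. The sets share mice and CPM need not be normally spread, so the 17 cannot be read as an excess.

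Abcc4 gave 5 of them, each the highest in its group: 7.03 CPM in Chow_Vehicle_24_w replicate 5 (nearest other 3.21), 108 in Vehicle_24_w replicate 1 (49.97), 6.33 in Semaglutide_8_w replicate 6 (4.09), 5.19 in Chow_reversal_16_w replicate 4 (3.94) and 17.02 in Chow_reversal_24_w replicate 6 (5.29). Cyp7a1 was high in Chow_Vehicle_24_w replicate 6 (216 CPM, nearest other 101) and low in Vehicle_16_w replicate 2 (9.86, nearest 64.6). The same lean mouse was highest in Nr1h4 (124 CPM, nearest 104).

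Semaglutide_16_w replicate 4 was highest in both Cyp27a1 (608 CPM, nearest 495) and Slc27a5 (1480.3, nearest 928). Slc27a5 was also high in Chow_Vehicle_24_w replicate 3 (1456, nearest 1250.5). Amacr was low in Chow_Vehicle_24_w replicate 5 (127 CPM, nearest 151) and Vehicle_24_w replicate 3 (76.6, nearest 92.1). Abcb11 was low in Semaglutide_8_w replicate 4 (405 CPM, nearest 536) and high in Semaglutide_24_w replicate 5 (525, nearest 438). Gpbar1, at a few counts, was highest in Semaglutide_16_w replicate 2 (0.136 CPM, the others at 0) and Chow_reversal_16_w replicate 2 (0.206, nearest 0.0659).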

How the results depend on the processing

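The values of the 32 tested members in 15 comparisons, 480 in all, were recomputed. DESeq2 lost 1 call and gained 8, RLE factors lost 5, the block on sets of library numbers lost 15 and gained 7, no filter lost 25, and leaving out the second-series libraries lost 13 and gained 8. Only the groups compared lost 28 and gained 22 of 476 values. Library totals alone lost 55, gained 9 and turned 1: Scp2 with the diet, from -0.31 to 0.12. The cause was not tested.

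Members passing for semaglutide against vehicle at 8 weeks went from 6 (5.75% of all genes) to 3 under library totals alone (8.11%), 3 without the filter (1.74%), 17 with only the groups compared (15.3%) and 3 without Vehicle_8_w replicate 7 (3.68%). At 16 weeks the 9 (12.2%) became 5 without the filter (4.26%), 5 with only the groups compared (3.9%) and 5 under the block (4.78%). Without the second-series libraries 6 passed at 16 weeks (4.96%). Of the 9 calls, 3 were kept there and 3 under the block. Semaglutide against reversal went from 6 (6.16%) to 11 with only the groups compared at 8 weeks (22.5%), and at 24 weeks from 8 (16.5%) to 5 under library totals alone (14.3%), 5 without the filter (5.65%) and 2 with only the groups compared (3.93%). Semaglutide against chow went from 16 (31.4%) to 9 under library totals alone (35.7%). Reversal against chow went from 3 (6.63%) to 1 under library totals alone (9.31%), 1 without the filter (2.5%), 0 with only the groups compared (1%) and 1 without Chow_reversal_24_w replicate 7 (3.15%). Vehicle at 24 against 8 weeks went from 2 (0.792%) to 1 with RLE factors (0.832%), 1 without the filter (0.377%) and 4 with only the groups compared (1.63%). It was 1 under the block (0.778%), 1 without Vehicle_8_w replicate 7 (0.632%) and 1 without Vehicle_24_w replicate 1 (0.353%). The change of the semaglutide and of the reversal effect with time went from 0 to 1 each in DESeq2. The shares of all genes went from 0.0604% to 0.107% and from 0.215% to 0.396%. For the diet, semaglutide at 24 weeks and reversal at all times, every alternative run gave a count within 1.5 times that reported.

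The labels give the groups no shared replicate numbers. The sets of library numbers served as the block, and whether they mark a shared day or batch is not given in the sources used here. Most sets held about 1 mouse of each group, but the second-series libraries, all semaglutide mice, formed a set of their own. The block and the fit without those libraries therefore overlap and are not separate checks. Leaving out Semaglutide_24_w replicate 2 lost 6 and gained 2 of 128 values, replicate 8 lost 6 and gained 0, and Semaglutide_16_w replicate 3 lost 0 and gained 1 of 64. Depth limits Slc51a, Slc51b and Gpbar1, which had at most 9, 79 and 4 counts in a library.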
